A study of Mus musculus with 24 samples.

Results

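The cells described here are activated CD4 T cells of C57BL/6J mice, either lacking miR-155 (knockout, KO) or wild type (WT), profiled by RNA sequencing. They are the 6 libraries titled as CD4 T cells, 3 KO and 3 WT, of 24 libraries in all. The other 18 come from B cells, dendritic cells and macrophages, with 3 KO and 3 WT libraries of each cell type. In both genotypes the T cells were purified from lymph node and spleen as CD4+CD25-CD44- cells, which are naive cells without the CD25 and CD44 of regulatory and memory T cells. They were then activated in culture with beads that engage CD3 and CD28, the receptor complex for antigen and its main costimulatory receptor. The labels name no allele, Cre driver or target cell type for the KO. The time of activation is not given in the labels. In the series' design text the 3 libraries of a group are sequencing replicates, and nothing says that they came from separate animals or cultures. The p-values therefore cover only the spread among the libraries, and that spread may be technical.

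MicroRNAs guide Argonaute proteins to messenger RNAs that pair with bases 2 to 8 of the microRNA, the seed, and lower their stability and translation. miR-155 is made from the noncoding gene Mir155hg and is induced when T cells, B cells and myeloid cells are activated. In T cells it is known for shaping helper cell differentiation, cytokine production and the response to cytokines, and among its reported targets are regulators such as Jarid2, Bach1, Socs1, Ets1 and the phosphatase SHIP1 (Inpp5d). Loss of a microRNA usually raises each of its targets by a modest amount, and a gene can also change without being a target.

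The mature microRNA and the sites of the genes on which the results turn are given here so that the pairing can be read. The microRNA lies at chr16:84714143-84714165 (plus strand, GRCm38.p6, RefSeq), and its seed is in capitals.
mmu-miR-155-5p: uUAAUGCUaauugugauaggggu
The 3′ UTR searched was the longest one annotated for a gene in GENCODE M21. On the transcript strand only, the search was for AGCATTAA (8mer), AGCATTA (7mer-m8), GCATTAA (7mer-A1) and GCATTA (6mer), and a shorter motif inside a longer one was counted once as the longer. A gene with an 8mer or a 7mer is called seed-matched. Sites of 13 genes follow as RNA-sense DNA from 5′ to 3′, 22 bases each, with the site in capitals. The first 12 genes rose in KO and the last, Socs1, did not pass the test although it has the same 8mer.
Jarid2 first 8mer: actgattttgttttAGCATTAA
Jarid2 second 8mer: gtgtccctcacatcAGCATTAA
Nfe2l2 8mer: atgaaactttacaaAGCATTAA
Tab2 8mer: gccataaggtagaaAGCATTAA
Trp53inp1 8mer: tttacactaacacaAGCATTAA
Ets1 8mer: actctgggttttaaAGCATTAA
Csnk1g2 8mer: tcatccccttcgagAGCATTAA
Arhgap18 8mer: ctaattatcaccaaAGCATTAA
Tspan14 first 8mer: cctcgtttctccatAGCATTAA
Tspan14 second 8mer: tattaaaacaaaaaAGCATTAA
Myo10 8mer: atcattgtcctgtgAGCATTAA
Picalm 7mer-m8: ctacatttaaaactcAGCATTA
Sdcbp 7mer-m8: ttttcattccacaaaAGCATTA
Abhd16a 7mer-A1: ccctcatacacacctGCATTAA
Socs1 8mer: tgccgctgtgccgcAGCATTAA
The sites lie in the 3′ UTR, and the coordinates of GRCm38 that follow are those of the capitals. The Jarid2 sites are at chr13:44920093-44920100 and chr13:44920866-44920873 on the plus strand. The Nfe2l2 site is at chr2:75675806-75675813 and the Tab2 site at chr10:7906691-7906698, both on the minus strand. The Ets1 site is at chr9:32757208-32757215 on the plus strand and the Socs1 site at chr16:10784206-10784213 on the minus strand. The bases before the capitals differ from gene to gene.

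The 6 libraries held 8070030 to 10495461 gene counts. Values per library are counts per 1000000 (CPM) after TMM scaling of library sizes in edgeR. They are not divided by gene length, so they compare libraries for 1 gene and not genes with each other. The files have no row for Mir155 or Mir155hg, and the KO label was therefore not checked on the targeted gene. The T cell markers fit the label in every library. Cd3e, a chain of the CD3 complex, stood at 176, 186 and 174 CPM in KO and at 172, 172 and 176 CPM in WT. Lck, the kinase of the T cell receptor, stood at 591, 550 and 612 CPM in KO and 587, 602 and 631 CPM in WT. Summed over 9 T cell markers the KO libraries reached 2831 to 2884 CPM and the WT libraries 2920 to 3061 CPM (two-sided exact permutation p = 0.1, the smallest p that 3 against 3 libraries allow).

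Summed markers of several other cell types were higher on average in KO. The 8 B cell markers summed to 65.5, 65.2 and 36.8 CPM in KO and to 27.6, 29.6 and 47.4 CPM in WT (exact permutation p = 0.2), so that the groups overlap and KO replicates 1 and 2 stand highest. The 11 dendritic cell markers summed to 223, 183 and 150 CPM in KO and to 120, 111 and 119 CPM in WT (exact permutation p = 0.1). Most of that sum is the class II genes Cd74, H2-Aa and H2-Ab1, which B cells also express, while the defining genes Clec9a, Xcr1, Cd209a and Siglech were at 0 in all 6 libraries and Itgax was at most 0.124 CPM. In bulk samples, more cells of a type and more RNA per cell cannot be told apart. Markers of neutrophils summed to at most 0.422 CPM and those of erythroid cells and platelets to at most 0.517 CPM. The CD8 T cell markers summed to 6.96 to 11 CPM in KO and 5.48 to 6.54 CPM in WT (exact permutation p = 0.1). The 6 stromal markers summed to 123, 105 and 122 CPM in KO and to 91.8, 80.4 and 66 CPM in WT (exact permutation p = 0.1), nearly all of it Pecam1, at 122, 103 and 121 CPM in KO and 90.9, 79.5 and 65.3 CPM in WT, while Dcn was at 0. The plasma cell markers summed to 181, 196 and 186 CPM in KO and to 154, 156 and 184 CPM in WT (exact permutation p = 0.2). Nearly all of it was Xbp1, at 177, 192 and 185 CPM in KO and 152, 153 and 178 CPM in WT. Sdc1 averaged 1.43 CPM in KO and 1.61 CPM in WT, Mzb1 0.934 and 1.58 CPM, and Prdm1 0.54 and 0.349 CPM. Jchain was at most 0.124 CPM.

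Few genes passed the test between KO and WT cells, most with small changes. Of 10396 genes that passed the expression filter, 223 (2.15%) were called by edgeR's quasi-likelihood test at a Benjamini-Hochberg adjusted p under 0.05. There were 140 (1.35%) that rose and 83 (0.798%) that fell in KO. These shares are the background for the counts of called list members given below. An unadjusted p under 0.05 was found for 1880 genes (18.1%). The median size of the 223 log2 fold changes was 0.42, and 18 rose and 9 fell by 1 or more on the log2 scale. In all 223 the KO and WT libraries did not overlap, against 22.8% of all tested genes.

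How many genes were called depended on the libraries. Without KO replicate 1 the test called 32 genes (0.305% of those tested, 0.21% as increases), without KO replicate 2 it called 68 (0.649%, 0.41%), and without KO replicate 3 it called 47 (0.448%, 0.343%). Without WT replicate 2 it called 34 (0.324%, 0.229%). By contrast, it called 598 (5.69%, 3.05%) without WT replicate 1 and 409 (3.89%, 2.51%) without WT replicate 3. The direction of all 223 was the same in each of these 6 fits. That follows from the lack of overlap between their KO and WT libraries and adds no support. Of the 223, 29 (0.279% of tested genes) were called in all 6. Those 29 are 20 genes that rose and 9 that fell, and they lead the account that follows. They were picked out after their values were seen. Of the 223, 181 were called both without WT replicate 1 and without WT replicate 3, while 32 to 62 were called in each of the other 4 fits.

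Genes with a site for the microRNA stood slightly higher in KO. Of 355 tested genes with an 8mer, 32 (9.01%) rose and 1 fell, against 76 of 8095 genes without a site (0.939%) that rose and 69 that fell. The median log2 fold change of 8mer genes was 0.078 above that of genes with no site. The same difference was 0.028 over 618 genes with a 7mer-m8, 0.031 over 488 genes with a 7mer-A1 and 0.014 over 781 genes with a 6mer alone. These are medians over genes, which are not independent replicates.

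The shift of 8mer genes was similar in the 3 KO libraries. Measured in each library against the mean of the WT libraries and relative to genes without a site, it was 0.078, 0.091 and 0.091 in KO and -0.015, 0.018 and 0.002 in WT, where values lie near 0 because the WT mean is the baseline. Genes with 1 seed-matched site exceeded genes without a site by 0.035, genes with 2 by 0.075, and the 46 genes with 3 or more by 0.084. The 16 genes with 2 or more 8mers, among them Jarid2 and Tspan14, stood 0.133 above genes without a site, and 3 of them rose. In short 3′ UTRs of under 500 bases the 66 seed-matched genes stood 0.110 above genes without a site, against 0.023 for the 602 in 3′ UTRs of over 3000 bases. An 8mer in the coding sequence with no site in the 3′ UTR went with a difference of 0.040 over 144 genes, of which 0 were called by edgeR, 29 had an unadjusted p under 0.05, against 18.1% of all tested genes, and DESeq2 called 1.

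**Figure D1:**
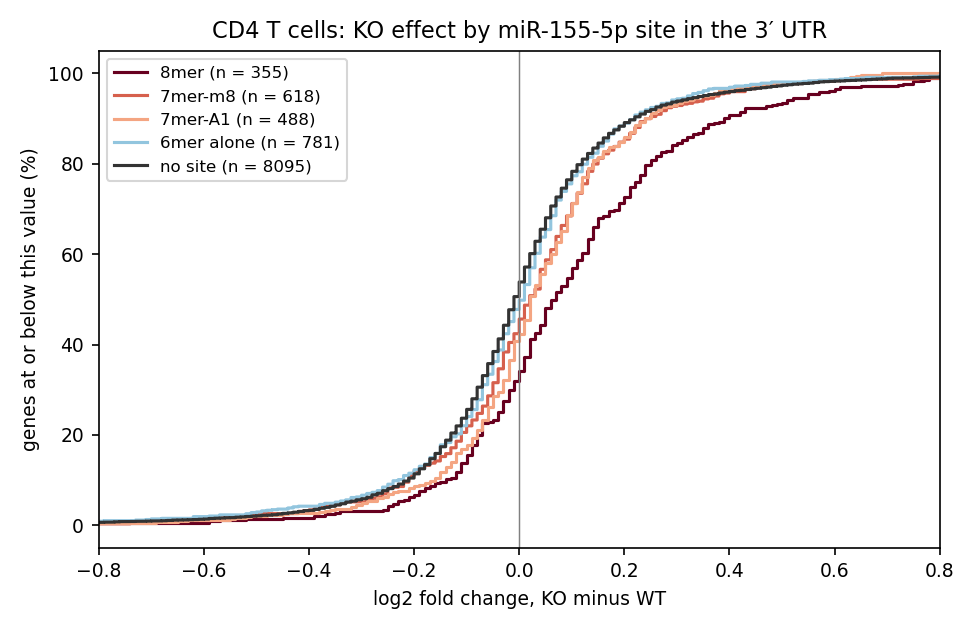
Cumulative share of tested genes (y axis, percent) at or below each log2 fold change of KO minus WT (x axis, shown from -0.8 to 0.8), by the strongest miR-155-5p site in the 3′ UTR. The curve of the 355 genes with an 8mer lies to the right of all others, and the curves of the 781 genes with a 6mer alone and the 8095 without a site lie close together.

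Among the 1461 seed-matched genes 55 (3.76%) rose and 8 (0.548%) fell. Of the 55 that rose, 58.2% had an 8mer and 27.3% had 2 or more sites, against 23% and 15.2% of the 1398 seed-matched genes that were not called. Their log2 fold changes ran from 0.18 to 1.18 with a median of 0.36. Of the 20 genes that rose in all 6 fits with a library left out, 13 were seed-matched and 10 of those had an 8mer. Of all 10396 tested genes, 1461 were seed-matched and 355 had an 8mer. None of the 9 that fell in all 6 fits was seed-matched (Ptprv, 1 of the 9, has no annotated 3′ UTR). Over so few genes a count of 0 is near the share of all tested genes.

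Jarid2 showed a large increase among well measured seed-matched genes. It encodes an accessory subunit of Polycomb repressive complex 2, which methylates histone H3 at silenced genes. It stood at 235, 218 and 223 CPM in KO and at 142, 135 and 112 CPM in WT, so every KO library lay far above every WT library. The log2 fold change was 0.80 (SE 0.08, edgeR adjusted p = 0.0015). Jarid2 was the only member called of 11 tested genes of that complex, and the list's median was 0.008, against -0.001 over all tested genes.

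Nfe2l2 and Bach1 encode opposing regulators of the same genes, since NRF2 (Nfe2l2) activates antioxidant and iron genes and Bach1 represses many of them. Nfe2l2 stood at 82, 86.7 and 85.3 CPM in KO and 55.8, 53.9 and 57.4 CPM in WT, with a log2 fold change of 0.60 (SE 0.06, edgeR adjusted p = 0.00018). Bach1 stood at 18.1, 17.2 and 19.5 CPM in KO and 10.8, 13.3 and 12 CPM in WT, with a log2 fold change also of 0.60 (SE 0.11, adjusted p = 0.024). Neither gene's groups overlap. Glutathione reductase, Gsr, which has a 7mer-A1, also rose, at 75.7, 74.2 and 71.5 CPM in KO and 58.9, 59.1 and 65.1 CPM in WT (0.27, SE 0.06, adjusted p = 0.038). These 3 were the members called among 19 tested genes of the antioxidant and iron list, none fell, and the list's median was 0.080. Of all tested genes 1.35% rose and 0.798% fell. Nfe2l2 kept its call whichever library was left out, while Bach1 and Gsr were lost without KO replicate 1 (adjusted p = 0.11 for Bach1 and up to 0.19 for Gsr) and were called in 2 of the 6 fits.

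Tab2, Csnk1g2 and Arhgap18 each have an 8mer and rose. Tab2, an adaptor that links receptors to the kinase TAK1 upstream of NF-kB, stood at 184, 181 and 182 CPM in KO and 136, 134 and 119 CPM in WT (log2 fold change 0.49, SE 0.05, edgeR adjusted p = 0.00063). Csnk1g2, a casein kinase 1 isoform, stood at 205, 193 and 205 CPM in KO and 150, 141 and 143 CPM in WT (0.48, SE 0.05, adjusted p = 0.00031). Arhgap18, a GTPase-activating protein, stood at 25.6, 26.5 and 27.9 CPM in KO and 17.3, 17.4 and 17.7 CPM in WT (0.61, SE 0.09, adjusted p = 0.0032). In each of them every KO library was above every WT library. In a fit of all 24 libraries of the series Arhgap18 was not called (edgeR adjusted p = 0.062).

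The transcription factor Ets1 and the stress protein Trp53inp1 are reported targets with an 8mer each. Ets1, which is needed for the survival and maturation of T cells, stood at 290, 280 and 305 CPM in KO and 233, 230 and 237 CPM in WT. Its change was small, at a log2 fold change of 0.32 (SE 0.04, edgeR adjusted p = 0.0027). In a fit of all 24 libraries of the series neither Ets1 (edgeR adjusted p = 0.72) nor Trp53inp1 (adjusted p = 0.31) was called. Trp53inp1, which p53 induces, stood at 63.4, 61.9 and 64.6 CPM in KO and 43.8, 41.4 and 46.9 CPM in WT (0.52, SE 0.07, adjusted p = 0.0016). It was the only member of 31 tested genes of the p53 and BCL2 list that rose. In the same list the kinase Plk2 (-0.59, SE 0.10, adjusted p = 0.011) and the death receptor Tnfrsf10b (-0.45, SE 0.10, adjusted p = 0.041) fell.

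The other seed-matched genes called in every fit with a library left out were Picalm, Sdcbp, Tspan14, Myo10, Abhd16a and Dhx40. In a fit of all 24 libraries of the series Sdcbp (edgeR adjusted p = 0.12) and Dhx40 (adjusted p = 0.13) were not called. Picalm, which assembles clathrin coats in endocytosis and has 3 sites, stood at 234, 250 and 224 CPM in KO and 149, 169 and 177 CPM in WT (log2 fold change 0.52, SE 0.06, edgeR adjusted p = 0.0027). Sdcbp, the scaffold syntenin-1, stood at 128, 130 and 134 CPM in KO and 87.1, 81.3 and 88.9 CPM in WT (0.61, SE 0.05, adjusted p = 0.0001). The tetraspanin Tspan14, a partner of the protease ADAM10, stood at 43.2, 40.7 and 37.1 CPM in KO and 27.3, 26.5 and 26.6 CPM in WT (0.59, SE 0.08, adjusted p = 0.0025). None of these groups overlap, and the WT libraries of Tspan14 were nearly equal. The unconventional myosin Myo10 (0.57, SE 0.09, adjusted p = 0.0055), the phosphatidylserine lipase Abhd16a (0.64, SE 0.07, adjusted p = 0.00063) and the RNA helicase Dhx40 (0.42, SE 0.06, adjusted p = 0.0026) also rose. Abhd16a did so with a single 7mer-A1 in a 3′ UTR of 234 bases.

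**Figure D2:**
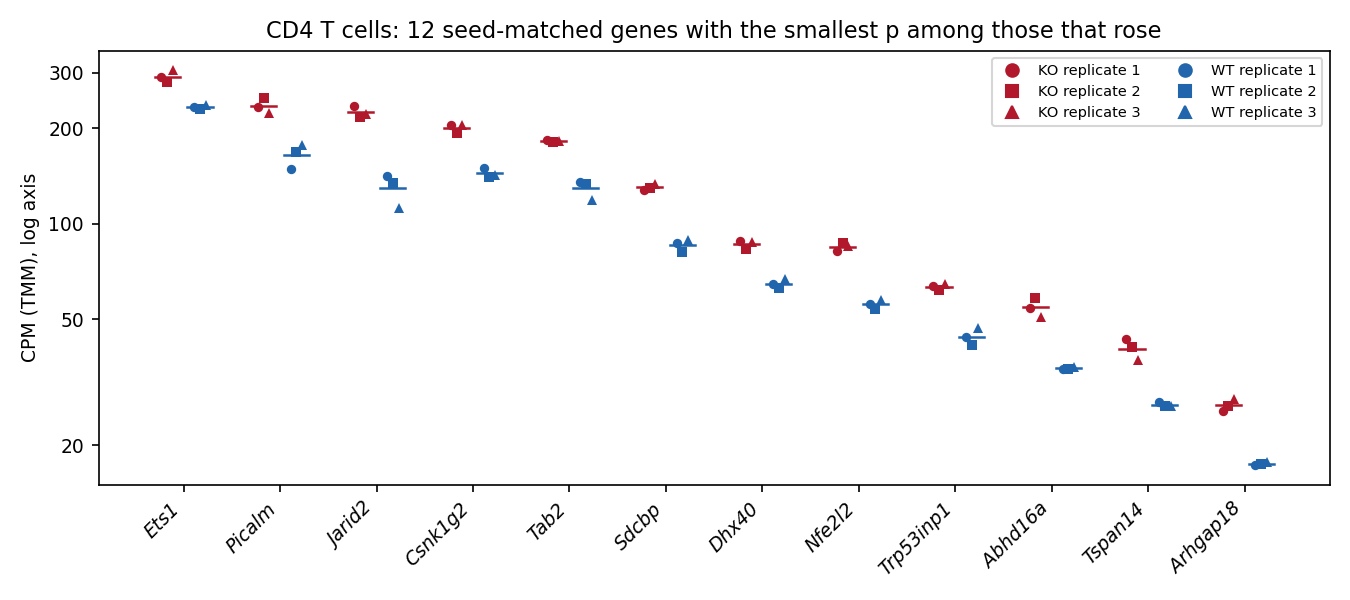
CPM per library (y axis, log scale) of the 12 seed-matched genes with the smallest p among those that rose, ordered by KO mean, with KO in red left of WT in blue, 1 point per library and a bar at the mean of 3. No KO point lies below a WT point of the same gene, and the gap is widest for Jarid2 (235, 218 and 223 CPM in KO, 142, 135 and 112 CPM in WT).

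Of 41 tested genes from a list of reported miR-155 targets, 12 rose and none fell, against 1.35% and 0.798% of all tested genes. The list's median log2 fold change was 0.255, against -0.001 over all tested genes, and 39 of the 41 lay above 0. In 24 of them all KO libraries stood above all WT libraries, which held for 11.3% of all tested genes. All 12 that rose were seed-matched, as were 34 of the 41. The count was 8 without KO replicate 1, 2 or 3 or WT replicate 2, 15 without WT replicate 1 and 14 without WT replicate 3. Without WT replicate 1, 2 members fell, and none fell in the other 5 fits.

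Hif1a, Uap1 and Zfp652 were further members of the list that rose. Hif1a, the oxygen-regulated transcription factor, stood at 968, 933 and 918 CPM in KO and 766, 796 and 800 CPM in WT (log2 fold change 0.26, SE 0.04, edgeR adjusted p = 0.0032). Its call was lost without KO replicate 1 (adjusted p = 0.051), and its coding exons overlap the predicted gene Gm49321, so reads may be shared. Uap1, which makes UDP-N-acetylglucosamine for protein glycosylation, stood at 88.4, 94.6 and 93.3 CPM in KO and 66.8, 71 and 79.6 CPM in WT (0.35, SE 0.07, adjusted p = 0.024). The zinc finger gene Zfp652 stood at 28.8, 28.7 and 25 CPM in KO and 16.1, 18.7 and 13.3 CPM in WT (0.77, SE 0.12, adjusted p = 0.0067). Its call was lost without KO replicate 1 (adjusted p = 0.071), and that of Uap1 was lost in 4 of the 6 fits with a library left out (adjusted p up to 0.13).

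Members of the phosphatidylinositol 3-kinase and mTOR list rose as well. Inpp5d encodes SHIP1, the phosphatase that removes the lipid product of PI3 kinase, and has an 8mer in both its 3′ UTR and its coding sequence. It stood at 169, 179 and 187 CPM in KO and 145, 143 and 149 CPM in WT (log2 fold change 0.29, SE 0.05, edgeR adjusted p = 0.012). Rheb, the GTPase that activates mTOR complex 1, stood at 59.6, 69.1 and 64.7 CPM in KO and 45.1, 45.6 and 52.2 CPM in WT (0.44, SE 0.08, adjusted p = 0.013). Both groups were apart in every library. The kinase Rps6ka5 (MSK1), with 2 sites, rose by 0.72 (SE 0.15, adjusted p = 0.03), and Pik3cd, the catalytic subunit p110 delta, which has no site, rose by 0.28 (SE 0.05, adjusted p = 0.029). Of 32 tested members these 4 rose and none fell, against 1.35% and 0.798% of all tested genes, with a median of 0.059. The count was 2 without KO replicate 1, 6 without WT replicate 1 and 4 without WT replicate 3, and in the other fits with a library left out no member kept an adjusted p under 0.05.

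Other reported targets with a site did not pass the test. Socs1, an inhibitor of cytokine signalling, stood at 42.9, 43.2 and 35.2 CPM in KO and 37.2, 37.8 and 43.1 CPM in WT, so the groups overlap, and its log2 fold change was 0.04 (SE 0.09, edgeR adjusted p = 0.88). With a library left out the value ran from -0.02 without KO replicate 2 to 0.13 without KO replicate 3. The ubiquitin ligase Peli1 was at 0.05 (SE 0.07, adjusted p = 0.72). In neither gene were the genotypes apart. The inhibitory receptor Ctla4 stood at 161, 146 and 190 CPM in KO and 135, 112 and 116 CPM in WT, with no overlap, at 0.46 (SE 0.11, adjusted p = 0.098). With DESeq2 it was called (adjusted p = 0.00024), and with a library left out its edgeR adjusted p ran from 0.042 without WT replicate 1 to 0.33 without WT replicate 2. Sgk3 (0.55, SE 0.14, edgeR adjusted p = 0.054) and Ikbke (0.25, SE 0.06, edgeR adjusted p = 0.057) lay just outside the threshold without overlap. DESeq2 called neither (adjusted p = 0.19 for Sgk3 and 0.1 for Ikbke). With a library left out, edgeR called Sgk3 in 0 of the 6 fits and Ikbke in 1. Maf, at 0.102 to 0.673 CPM in KO and 0.207 to 0.738 CPM in WT, was too low to be tested.

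The 8 seed-matched genes that fell were changed less firmly. They include Golm1 (-0.63, SE 0.13, edgeR adjusted p = 0.029), St8sia6 (-0.74, SE 0.15, adjusted p = 0.029), Zscan26 (-0.70, SE 0.16, adjusted p = 0.04) and Gucy1b3 (-0.80, SE 0.17, adjusted p = 0.032). Gucy1b3, a subunit of the nitric oxide receptor, stood at 5.23, 5.38 and 5.32 CPM in KO and 9.55, 10.6 and 7.49 CPM in WT. Of these 8 only Tnfrsf10b has an 8mer, and it stood at 18.1, 21.3 and 16.6 CPM in KO and 26.4, 25.8 and 24.4 CPM in WT. Those named here were called in 2 or 3 of the 6 fits with a library left out.

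Of the 12 largest increases and 12 largest decreases at 5 CPM or more on average, only Gucy1b3 has an 8mer or 7mer in its 3′ UTR. Of all 10396 tested genes 1461 have one, so a low count over so few genes says little about large changes. Below 5 CPM on average, Marcks and Ciita have a 7mer-m8 and rose by 1.18 and 1.16 on the log2 scale. Ctse, which encodes the aspartic protease cathepsin E, was almost lost, at 1.87, 0.577 and 1.02 CPM in KO and 56.2, 52.4 and 55.9 CPM in WT. Its log2 fold change was -5.62 (SE 0.18, edgeR adjusted p = 2.8e-09). Cd55, which protects cells from complement, stood at 3.24, 2.98 and 3.38 CPM in KO and 9.45, 8.99 and 10.3 CPM in WT (-1.58, SE 0.16, adjusted p = 0.00037). Ptprv, a gene of the receptor tyrosine phosphatase family, stood at 37.7, 38.3 and 39.3 CPM in KO and 64.5, 60.9 and 65.4 CPM in WT (-0.73, SE 0.06, adjusted p = 0.0001). In each of them the libraries of a genotype were close together and far from the other genotype.

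These 3 genes lie near each other on chromosome 1, Cd55 at chr1:130439027-130462744, Ctse at chr1:131638306-131675505 and Ptprv at chr1:135108497-135132594 (GRCm38). Rnpep, an aminopeptidase at chr1:135262712-135284084, rose, at 95.6, 101 and 109 CPM in KO and 74.1, 77.8 and 78.4 CPM in WT (0.41, SE 0.06, edgeR adjusted p = 0.0044). Over the stretch chr1:130439027-136630053, whose ends were chosen after the values were seen, 4 of 56 tested genes rose and 5 fell, against 1.35% and 0.798% of all tested genes. The others were Cyb5r1, Lad1 and Zfp281, which rose, and Eif2d and Timm17a, which fell. With a library left out, Timm17a was called in 1 of the 6 fits, and Cyb5r1, Lad1, Zfp281 and Eif2d in 2 each. Whether these genes differ in sequence between the KO and WT mice was not tested.

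Pydc3, of the interferon-inducible PYHIN family on the same chromosome, stood at 0.622, 1.25 and 0.409 CPM in KO and 5.09, 3.62 and 4.11 CPM in WT (-2.44, SE 0.34, edgeR adjusted p = 0.0032). It has close relatives, and the handling of reads that match several genes is not given, so its level is uncertain. Entpd4, Wdr11 and Man2c1, with no seed-matched site, fell in every fit. The Golgi or lysosomal nucleotidase Entpd4 stood at 37.1, 37.8 and 41.1 CPM in KO and 70.1, 70.7 and 66.9 CPM in WT (-0.84, SE 0.07, adjusted p = 5.1e-05). Wdr11, a protein of vesicle traffic, stood at 24.9, 29.7 and 28 CPM in KO and 41.1, 47.9 and 43.5 CPM in WT (-0.68, SE 0.09, adjusted p = 0.0018). The mannosidase Man2c1 stood at 44.4, 44.8 and 46.2 CPM in KO and 62.7, 75.2 and 66.6 CPM in WT (-0.59, SE 0.07, adjusted p = 0.0015). No library of either genotype reached into the range of the other for these genes.

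At 5 CPM or more on average, the largest increases were in 2 glutathione S-transferases, enzymes that conjugate glutathione to reactive compounds. Gstt1 stood at 19.4, 12.8 and 19.1 CPM in KO and 4.14, 3 and 5.38 CPM in WT (log2 fold change 2.03, SE 0.22, edgeR adjusted p = 0.0016). Gstt3 stood at 20.3, 18.7 and 22.2 CPM in KO and 9.34, 6.51 and 5.49 CPM in WT (1.52, SE 0.16, adjusted p = 0.00063). They are paralogs side by side on chromosome 10, and Gstt3 overlaps the predicted gene Gm20441 in coding exons, so how reads were divided among them is uncertain. The adhesion molecule Epcam stood at 10.6, 10.5 and 12.2 CPM in KO and 4.14, 4.65 and 3.27 CPM in WT (1.46, SE 0.17, adjusted p = 0.00068). Xdh, the xanthine dehydrogenase of purine breakdown, stood at 69.7, 72.9 and 63.6 CPM in KO and 31.4, 28.2 and 41.4 CPM in WT (1.03, SE 0.13, adjusted p = 0.0095), and lost its call without KO replicate 1 (adjusted p = 0.071). Epcam, Gstt1 and Xdh have a 6mer alone.

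**Figure D3:**
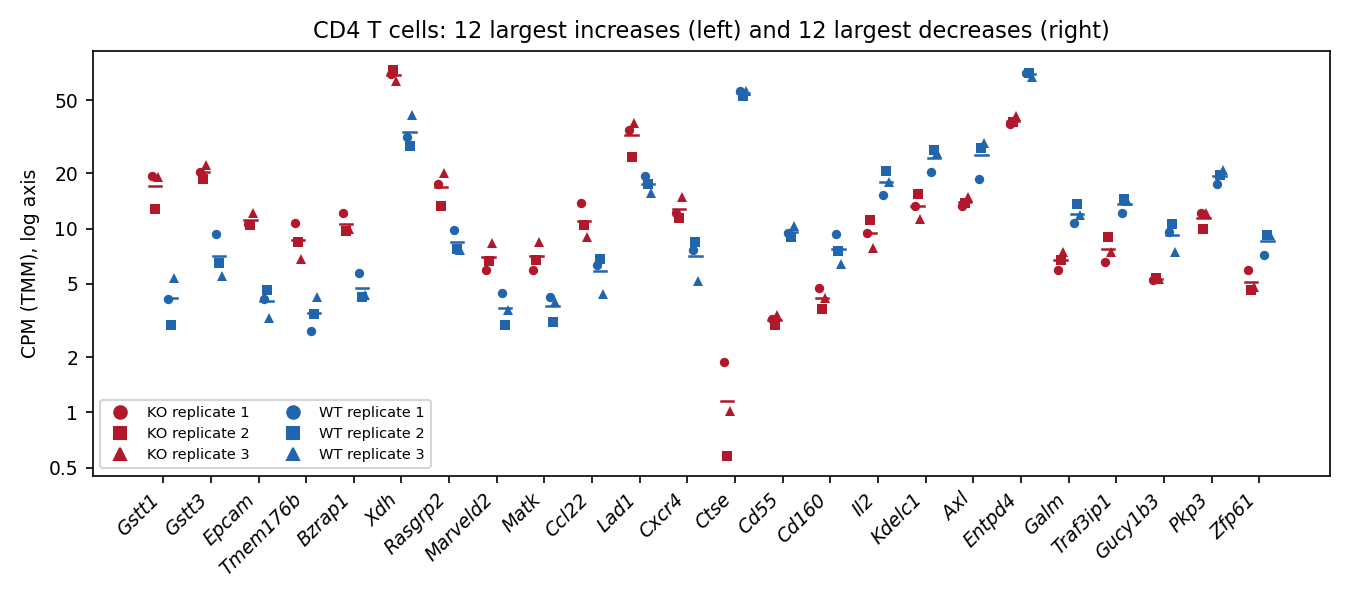
CPM per library (y axis, log scale) of the 12 largest increases (left) and 12 largest decreases (right) that were called, without overlap and at 5 CPM or more on average, with KO in red left of WT in blue, 1 point per library and a bar at the mean of 3. Ctse falls farthest, at 1.87, 0.577 and 1.02 CPM in KO and 56.2, 52.4 and 55.9 CPM in WT, and most other genes differ far less.

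Several of the larger increases are in genes that antigen-presenting cells also express. Ciita, the regulator of class II genes, which has a 7mer-m8, stood at 6.6, 6.05 and 4.6 CPM in KO and 1.91, 2.17 and 3.59 CPM in WT (log2 fold change 1.16, SE 0.25, edgeR adjusted p = 0.035). The chemokine Ccl22 (0.89, SE 0.20, adjusted p = 0.038) and the membrane protein Tmem176b (1.31, SE 0.21, adjusted p = 0.01) rose too. H2-Ab1 was called (0.56, SE 0.10, adjusted p = 0.016) and H2-Aa, at 35.9, 28.8 and 17.8 CPM in KO and 12, 12.3 and 12.6 CPM in WT, was not (1.15, SE 0.26, adjusted p = 0.091). The B cell marker sum was 36.8 to 65.5 CPM in KO and 27.6 to 47.4 CPM in WT, and all 8 of its genes were detected. The part of these cells in the increases was not tested. The calls of Ciita, Ccl22 and H2-Ab1 were each lost in 4 of the 6 fits with a library left out.

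Il2, Tnf and Lta, cytokine genes of activated T cells, fell. Il2, the growth factor that T cells secrete on activation, stood at 9.46, 11.2 and 7.88 CPM in KO and 15.2, 20.5 and 17.9 CPM in WT (log2 fold change -0.90, SE 0.15, edgeR adjusted p = 0.012). Tnf stood at 19.4, 23.3 and 17 CPM in KO and 29.5, 32 and 35.3 CPM in WT (-0.70, SE 0.11, adjusted p = 0.011). Lta, lymphotoxin alpha, stood at 30.7, 36.1 and 35.6 CPM in KO and 47.9, 54 and 60.8 CPM in WT (-0.66, SE 0.09, adjusted p = 0.0045). Every KO library was below every WT library in all of them, and none has a seed match.

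Of 18 tested genes of the cytokine and effector list these 3 fell and none rose, with a median of -0.240. Of all tested genes 0.798% fell and 1.35% rose. The other 15 were not called, and 7 of the 18 lay above 0. Lta was called in all 6 fits with a library left out. In a fit of all 24 libraries of the series none of the 3 was called (edgeR adjusted p = 0.11 for Il2, 0.15 for Tnf and 0.19 for Lta). Il2 and Tnf were lost without KO replicate 1 (adjusted p = 0.091 and 0.092), without KO replicate 3 (0.065 and 0.056) and without WT replicate 2 (0.078 for both). Interferon gamma, Ifng, was high in 1 library only, at 2.49, 1.73 and 0.921 CPM in KO and 0.849, 1.45 and 8.65 CPM in WT. Its log2 fold change was -1.11 (SE 1.09, adjusted p = 0.67), and it was 0.53 without WT replicate 3 (adjusted p = 0.58). The chemokine Xcl1 was at -0.91 (adjusted p = 0.056).

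The chains of the IL-2 receptor were not called. Il2ra, the alpha chain CD25, stood at 360, 377 and 453 CPM in KO and 401, 377 and 354 CPM in WT (log2 fold change 0.07, SE 0.09, edgeR adjusted p = 0.74), with overlap. Il2rb was at 0.12 (adjusted p = 0.36) and Il2rg at -0.09 (adjusted p = 0.26), and Il2 was the only one of 9 tested genes of the IL-2 and common gamma chain list to be called. Activation markers also overlapped between the genotypes. Myc stood at 356, 341 and 352 CPM in KO and 347, 352 and 356 CPM in WT, Cd69 was at -0.18 (adjusted p = 0.29) and Icos at -0.06 (adjusted p = 0.78). Among 32 immediate early and activation genes only Ier2 was called, at 66.5, 63.8 and 59.8 CPM in KO and 78.1, 81.5 and 79.9 CPM in WT (-0.33, SE 0.06, adjusted p = 0.013). Ier2 was called in 2 of the 6 fits with a library left out (edgeR adjusted p up to 0.093).

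Among 40 tested genes of the T cell receptor and its proximal signalling, 2 fell and none rose, against 0.798% and 1.35% of all tested genes. The coreceptor Cd4 stood at 381, 396 and 413 CPM in KO and 447, 463 and 455 CPM in WT (log2 fold change -0.20, SE 0.04, edgeR adjusted p = 0.031). Ubash3a, a phosphatase-like inhibitor of the receptor, stood at 70.2, 70.8 and 65.6 CPM in KO and 89, 86.3 and 84.4 CPM in WT (-0.33, SE 0.06, adjusted p = 0.012). Neither has a seed match in its 3′ UTR. Of 28 costimulation and checkpoint genes only Cd160 was called, at 4.73, 3.65 and 4.19 CPM in KO and 9.34, 7.54 and 6.44 CPM in WT (-0.90, SE 0.19, adjusted p = 0.033), and 8 of the 28 lay above 0, with a median of -0.083. The calls of Cd4 and Cd160 were each lost in 4 of the 6 fits with a library left out (adjusted p up to 0.18 and 0.13), and that of Ubash3a in 3 (up to 0.081).

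Genes of naive cells, homing and lineage showed few calls, beside 1.35% of all tested genes that rose and 0.798% that fell. In the naive, quiescence and homing list 2 of 35 rose, Ets1 and the chemokine receptor Cxcr4, which stood at 12.2, 11.4 and 14.8 CPM in KO and 7.64, 8.47 and 5.17 CPM in WT (log2 fold change 0.85, SE 0.18, edgeR adjusted p = 0.033). Cxcr4 was called in 2 of the 6 fits with a library left out. The transcription factor Klf2 was at 0.62 (adjusted p = 0.36). In the chemokine receptor and adhesion list, the adhesion ligand Selplg (0.25, SE 0.05, adjusted p = 0.034) and Cxcr4 rose and the integrin chain Itgb2 fell (-0.24, SE 0.05, adjusted p = 0.034), of 17 tested. Of 22 lineage transcription factors only Nfil3 was called, at 26.1, 25.3 and 31.2 CPM in KO and 18, 16.7 and 21.8 CPM in WT (0.55, SE 0.12, adjusted p = 0.034). Selplg, Itgb2 and Nfil3 were each called in 2 of the 6 fits with a library left out (edgeR adjusted p up to 0.17). Tbx21, the T helper 1 factor, ranged widely in both genotypes, at 66.1, 97.4 and 38.6 CPM in KO and 46.5, 99.4 and 116 CPM in WT (-0.37, SE 0.52, adjusted p = 0.78).

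In lists of proliferation and metabolism single members with a site were called, beside 1.35% of all tested genes that rose and 0.798% that fell. Of 56 cell cycle and replication genes, the helicase subunit Mcm2 (0.22, SE 0.04, edgeR adjusted p = 0.012) and E2f2 (0.31, SE 0.06, adjusted p = 0.031) rose and none fell, with a median of -0.015. No member was called when KO replicate 1 or 2 or WT replicate 2 was dropped, and 4 rose and 3 fell without WT replicate 1. With a library left out, Mcm2 was called in 3 of the 6 fits (adjusted p up to 0.11), E2f2 in 2 (up to 0.14), Slc38a2 in 2 (up to 0.11) and Pan2 in 1 (up to 0.23). Mcm2, with an 8mer, stood at 577, 577 and 556 CPM in KO and 498, 495 and 478 CPM in WT. The amino acid transporter Slc38a2, also with an 8mer, was the only 1 of 31 genes of stress response and amino acid supply to be called (0.23, SE 0.05, adjusted p = 0.024), and Hif1a the only 1 of 31 glycolysis and hypoxia genes. Among 23 genes of microRNA processing and silencing, Pan2 of the deadenylase complex, which has no site, rose (0.26, SE 0.06, adjusted p = 0.046). By edgeR none was called (adjusted p) among 24 SOCS and cytokine feedback genes, 11 JAK and STAT genes, 23 TGF-beta and SMAD genes or 30 sterol and fatty acid synthesis genes, and their medians were 0.026, -0.006, 0.029 and -0.026. In the same order 5, 1, 4 and 4 of these genes had an unadjusted p under 0.05, against 18.1% of all tested genes, and DESeq2 called 0 of them.

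Interferon-induced genes differed more between the WT libraries than between the genotypes. Usp18, which limits interferon signalling, stood at 25, 20 and 13.7 CPM in KO and 5.73, 7.65 and 30 CPM in WT (log2 fold change 0.43, SE 0.74, edgeR adjusted p = 0.83). Isg15, a ubiquitin-like modifier, stood at 21.5, 17.4 and 10.2 CPM in KO and 6.37, 6.72 and 25 CPM in WT (0.36, SE 0.70, adjusted p = 0.85). In both genes WT replicate 3 lay above every KO library and the other WT libraries lay below every KO library. Of 38 tested members of the list, 36 lay above 0 and the median was 0.354, but only Ifi47, a GTPase, was called (0.26, SE 0.06, adjusted p = 0.04). The median difference of the list from the WT mean was 0.584, 0.420 and 0.164 in the KO libraries and -0.229, -0.307 and 0.404 in the WT libraries. WT replicates 1 and 2 both lay below all 3 KO libraries in 29 of the 38 genes, a share not counted over all tested genes. All KO libraries stood above all WT libraries in 7 and below them in 0, against 11.3% and 11.4% of all tested genes. WT replicate 3 was the highest WT library in 30 of the 38 genes. Without that library 15 members were called as increases, against 1 without KO replicate 3, 2 without WT replicate 1 and none in the other fits with a library left out.

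**Figure D4:**
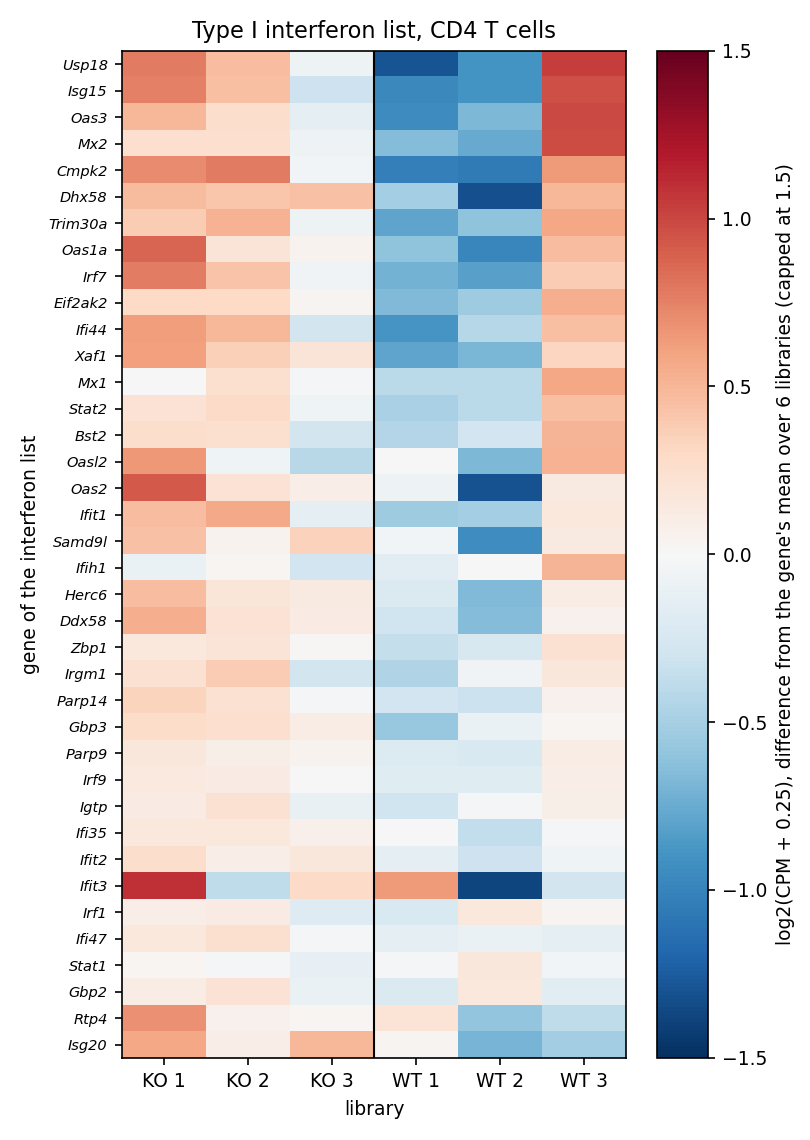
Each row is 1 of 38 tested interferon-induced genes and each column 1 library, KO left of WT, with color for the difference of log2(CPM + 0.25) from the gene's mean over the 6 libraries, capped at 1.5. Most rows are low in WT replicates 1 and 2 and high in KO replicates 1 and 2, and the upper rows are highest in WT replicate 3 (Usp18, 25, 20 and 13.7 CPM in KO, 5.73, 7.65 and 30 CPM in WT).

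The gene next to the deleted microRNA was lower in KO. Mrpl39, a protein of the mitochondrial ribosome at chr16:84717576-84735742, lies 3372 bases from the microRNA gene in GRCm38. It stood at 54.4, 57.9 and 51.2 CPM in KO and 78.8, 83.1 and 83 CPM in WT (log2 fold change -0.58, SE 0.06, edgeR adjusted p = 0.00052). The next tested neighbours, Atp5j (-0.00, SE 0.07, adjusted p = 0.98) and Gabpa (-0.17, SE 0.08, adjusted p = 0.28), overlapped between the genotypes, and Jam2 was at most 0.0961 CPM.

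Many of the genes that rose in CD4 T cells also rose in the other cells, in separate fits of each cell type. Of the 140, 40 of 136 tested also rose in B cells (29.4%), and they were 18.9% of the B cell increases. In B cells 2.09% of all tested genes rose and 1.11% fell, and 2.02% of those tested in both cell types rose. In dendritic cells 64 of 134 (47.8%) rose, and they were 4.98% of the increases there. In dendritic cells 12.2% of all tested genes rose and 9.42% fell, and 11.4% of those tested in both rose. In macrophages 6 of 129 rose (4.65%), and they were 10.2% of the increases there, where 0.55% of all tested genes rose and 0.336% fell. Among the 55 seed-matched genes that rose, 33 also rose in B cells (60%), 39 of 54 tested in dendritic cells (72.2%) and 6 of 54 in macrophages (11.1%). Of the 140, 3 fell in B cells, 11 in dendritic cells and 2 in macrophages. Inpp5d was among those that fell in dendritic cells (-0.29, SE 0.08, edgeR adjusted p = 0.032). Of the 83 genes that fell, 5 of 70 tested also fell in B cells (7.14%), 16 of 69 in dendritic cells (23.2%) and 1 of 68 in macrophages (1.47%). Another 3 of the 83 rose in dendritic cells, and 0 rose in B cells or macrophages. Picalm, Zfp652, Hn1l, Kbtbd2 and Wbp1l rose, and Mrpl39 fell, in all 4 cell types. With a CD4 T cell library left out, Kbtbd2 was called there in 3 of the 6 fits, Hn1l in 2 and Wbp1l in 1. DESeq2 did not call Wbp1l in CD4 T cells (adjusted p = 0.076).

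The KO effect was then compared directly, as the log2 fold change in CD4 T cells minus the mean of those in the other 3 cell types, in a fit of all 24 libraries. Of 12249 genes, 87 (0.71%) had a higher and 55 (0.449%) a lower effect in CD4 T cells (edgeR adjusted p under 0.05), and 29 of the 223 CD4 T cell genes were among them. Man2c1 and Wdr11 fell in CD4 T cells, each with a contrast of -0.61 (adjusted p = 0.0032 for Man2c1 and 0.0016 for Wdr11), and in B cells, dendritic cells and macrophages Man2c1 was at -0.10, 0.11 and 0.06, with no call. Xdh rose in CD4 T cells with a contrast of 1.40 (adjusted p = 0.0081), and was at -0.42, -0.34 and -0.32 in the other cell types in that order. The seed-matched genes Uap1 (-0.46, adjusted p = 0.014) and Gsr (-0.46, adjusted p = 0.0094) rose less than the mean of the other cell types. For Jarid2, Nfe2l2, Tab2, Picalm and Bach1 the contrast did not pass the threshold (adjusted p from 0.052 to 0.96), which does not show that the effects are alike. Without WT replicate 2 the contrast had 12 genes higher and 14 lower, without KO replicate 1 37 and 20, and without KO replicate 3 36 and 18. Without KO replicate 2 there were 62 higher and 36 lower, and without WT replicate 3 70 and 34.

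**Figure D5:**
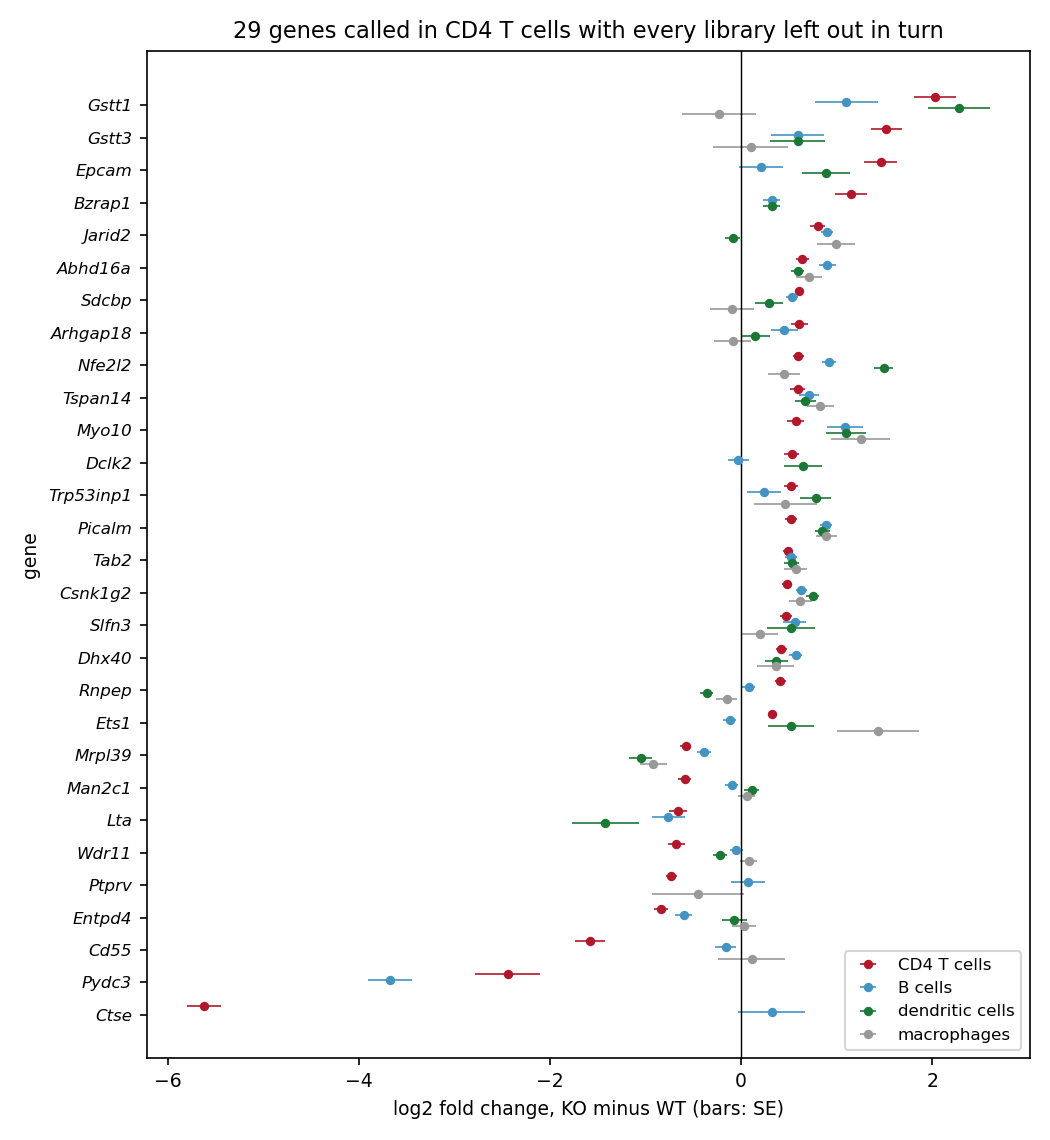
Log2 fold change of KO minus WT (x axis, bars are SE) in CD4 T cells, B cells, dendritic cells and macrophages for the 29 genes called in CD4 T cells in every fit with a library left out, without a point where a gene was not tested. Abhd16a, Tspan14, Picalm, Tab2 and Csnk1g2 lie above 0 and Mrpl39 below 0 in all 4 cell types, while Ctse lies at -5.62 in CD4 T cells and 0.32 in B cells, and Cd55 at -1.58 and -0.16.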

How the data were processed

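Per the labels' protocols, total RNA was extracted with TRIzol LS from sorted cells and sequenced as paired ends from TruSeq libraries. The deposited values are whole-number counts per gene symbol, and per the submitters' processing notes cutadapt, STAR and mm9 were used. The sources used here name neither the counting tool nor its strand setting. Rows without a gene were dropped, and reads outside counted features were 51.8 to 52.5% of each CD4 T cell library. The 3 KO and 3 WT libraries, grouped by title, were compared with edgeR 4.0.16 in R 4.3.3 (TMM, filterByExpr, robust quasi-likelihood F test, Benjamini-Hochberg adjusted p under 0.05, no minimum fold). SE was obtained from the size of the log2 fold change over the root of its F statistic. Library pairs of a genotype differed by more than counting noise (chi-square per gene 2.08 to 6.33).

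On simulated data for the CD4 T cell comparison, with 10342 genes, the fit recovered 76% of changes of 0.5 and 94.9% of changes of 1 on the log2 scale, with 10 false calls. For the contrast between cell types it recovered 70.4% of changes of 1 over 12175 genes, with 6 false calls. The simulated counts took their spread between libraries only from its trend with expression level. No gene had a spread of its own and no library stood apart, so these rates need not hold for the real libraries.

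Of 20673 symbols, 19967 matched GENCODE M21 directly, 566 by an older name and 140 did not match. The annotation is on GRCm38, so no coordinate was taken from the mm9 files. Among tested genes 10337 had a 3′ UTR.

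The members and the 22 pathway and 11 marker lists were chosen with earlier results of these data known, and support nothing on their own. Named genes were the 12 largest called changes each way (mean of 5 CPM or more, no overlap), the 12 seed-matched genes that rose and up to 6 that fell with the smallest p, up to 4 called members of each list, a fixed set of reported targets and activation genes, the 8 genes with the smallest p in the contrast, genes called in 4 cell types and the neighbours of Mir155, without predicted genes. Genes called in every fit with a library left out, other list members and marker genes were added after their values were seen. Alternatives were DESeq2 1.42.0, RLE scaling, other filters, each library left out, the replicate number as a block, all 24 libraries, and other 3′ UTR choices.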

Additional observations from a re-analysis of the deposited data

Results flagged for a closer look

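In 8 genes the KO effect in CD4 T cells differed from the mean of the other 3 cell types by edgeR's test of that difference (adjusted p from 6.2e-05 to 0.0032). They are the 8 with the smallest p. The difference was -1.33 for Slamf1, an adhesion receptor of lymphocytes, which was at -0.09 in CD4 T cells and 2.74 in macrophages. It was 1.32 for Pecam1, at 0.55 in CD4 T cells and -1.64 in macrophages. For Traf3ip3 it was 0.95, at 0.25 in CD4 T cells, -0.15 in B cells, -0.47 in dendritic cells and -1.46 in macrophages. For Fgd2 it was 2.51, where the KO libraries held 2.12, 1.73 and 1.33 CPM and the WT libraries 0.318, 0.827 and 0.633 CPM, with a B cell marker sum of 36.8 to 65.5 CPM in KO and 27.6 to 47.4 CPM in WT, whose part was not tested. For Txnip, which restrains glucose uptake, the difference was 0.75. Txnip was at 0.43 in CD4 T cells, -0.08 in B cells, -0.71 in dendritic cells and -0.17 in macrophages. The difference was 0.53 for Rasal3, which fell in the other 3 cell types and was at -0.08 in CD4 T cells. Wdr11 and Man2c1, at -0.61 each, were the only ones of the 8 called in the separate fit of CD4 T cells, as decreases.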

How the results depend on the processing

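With RLE scaling (141 up and 83 down), DESeq2 (144 and 69) and a filter of 1 CPM (143 and 89) the counts of called genes stayed within 1.5 times those reported, and DESeq2 shared 156 of the 223. Without an expression filter they were 256 and 222, and in the fit of all 24 libraries 42 and 21. With 1 library left out they ran from 22 to 321 up and 10 to 277 down. The distinct list members called up numbered 23, 9 in the fit of all 24 and 8 to 51 with a library left out. Those called down numbered 10, 25 without a filter, 18 with the replicate block, 0 in the fit of all 24 and 1 to 35 with a library left out. The excess of seed-matched genes over genes without a site was 0.042, 0.027 without a filter, 0.026 in the fit of all 24, 0.052 for 3′ UTRs of 500 to 3000 bases and 0.035 to 0.045 with a library left out. Seed-matched genes called up numbered 88 without a filter, 16 in the fit of all 24 and 15 to 81 with a library left out. The 8mer excess was 0.069 without a filter, 0.062 in the fit of all 24, 0.088 with the shortest 3′ UTR, 0.101 for 3′ UTRs of 500 to 3000 bases, 0.070 at a mean of 5 CPM or more and 0.072 to 0.088 with a library left out. The 8mer genes called up numbered 9 in the fit of all 24, 18 for 3′ UTRs of 500 to 3000 bases and 11 to 44 with a library left out. The contrast between cell types had 12 to 101 genes higher and 14 to 74 lower. The cause of these differences was not tested.

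The replicate numbers were not taken as pairs. Deviations from the group mean correlated at 0.04, 0.06 and -0.241 in same-numbered KO and WT libraries, and from -0.289 to 0.246 in the other combinations. With 3 libraries per group, centred on their own mean, these correlations cannot decide whether the samples were paired. With the number as a block 166 genes were called up and 105 down, and the contrast had 109 higher and 65 lower.

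Of 91 named genes, 71 were called. Of those, 61 were also called by DESeq2 and 32 in the fit of all 24 libraries. Called genes could not change sign with a library left out, since their KO and WT libraries did not overlap. Among named genes that were not called, Atp5j ran from -0.09 to 0.05, Icos from -0.16 to 0.02 and Ifng from -1.58 to 0.53. Il2ra ran from -0.03 to 0.14, Myc from -0.02 to 0.01 and Socs1 from -0.02 to 0.13. Depth limits genes of a few CPM, such as Pydc3 and Fgd2, more than the others.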
